A study of Rattus norvegicus with 12 samples.

Results

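The thioredoxin-interacting protein Txnip, its relatives among the alpha-arrestins (Arrdc1, Arrdc2, Arrdc3 and Arrdc4), the thioredoxins Txn1 and Txn2 and the glucose sensors Mlxip and Mlxipl were examined in rat cells that had been deprived of oxygen and glucose. These 9 genes were chosen by name as 1 functional group, with earlier results of these data known. Of the 9, 8 were among the 30454 genes of the count table under these names, and all 8 passed the filter on low counts that left 13692 genes for testing; Mlxipl was not analysed here. Messenger RNA was sequenced in 12 libraries, 4 in each of 3 groups. Every group was labelled PC12, a line derived from a rat adrenal tumour of chromaffin cells, and every group was first injured by oxygen-glucose deprivation with reoxygenation afterwards. The OGDR group had that injury alone, the MSCs group also had mesenchymal stem cells, and the rTMS-MSCs group had stem cells plus repetitive transcranial magnetic stimulation at 10 Hz, all 48 h after treatment. An undeprived group and a group with stimulation alone were not analysed here, so that each value is relative to injured cells. The labels do not give the species of the stem cells, how they were combined with the PC12 cells, or whether the 4 samples of a group came from separate cultures. The p-values therefore measure the spread between these samples, which may be technical.

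Txnip binds reduced thioredoxin and holds back its disulfide-reducing activity, and it also promotes removal of glucose transporters from the cell surface. It belongs to the alpha-arrestins, a family of adaptors that recruit NEDD4-type ubiquitin ligases to membrane proteins. Transcription of Txnip and of Arrdc4 is known to follow glucose supply through Mlxip (MondoA) and Mlxipl (ChREBP), which act together with Mlx, and Txnip is also known as a gene induced by glucocorticoids. Txn1 is the cytosolic and nuclear thioredoxin, and Txn2 is the mitochondrial one.

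Libraries held 18246250 to 20471838 counts in genes, so that 1 CPM (reads of a gene scaled to a common library total by the trimmed mean of M values, TMM) corresponded to 18.5 to 20.7 counts. The chromaffin markers Th, Dbh, Chga, Chgb, Ddc, Pnmt and Slc18a1 lay under 1 CPM in every group, and Ddc had no count in any library. Glial and Schwann cell markers, Sox10 the highest of them, had summed levels of 905 to 985 CPM in OGDR, 1064 to 1137 CPM in MSCs and 1042 to 1150 CPM in rTMS-MSCs. The cells are therefore called here by their label, PC12, which these markers did not bear out. Of 9 stromal markers, Col1a2, Dcn, Thy1 and Lum lay under 1 CPM in each group, Lum with no count. Col3a1 had a mean of 0.319, 0.901 and 1.07 CPM in OGDR, MSCs and rTMS-MSCs. Nt5e had 13.2, 22.0 and 19.3 CPM in the same order and was thus higher on average in both groups with stem cells. Col1a1 had 5.06, 5.33 and 5.94 CPM, and Eng had 1.12, 1.22 and 1.26 CPM. The summed stromal level, mostly Pdgfra, was 297 to 319 CPM in OGDR, 310 to 336 CPM in MSCs and 232 to 306 CPM in rTMS-MSCs. Macrophage markers summed to 51.9 to 59.9 CPM, 51.3 to 66.8 CPM and 64.4 to 78.0 CPM in the same order, mostly Cd14, and Adgre1 had no count. Glial marker sums were higher in every library of MSCs and rTMS-MSCs than in any OGDR library, and the part of cell makeup in the results below was not tested. In these bulk libraries, fewer cells of a type and less RNA per cell cannot be told apart.

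Addition of stem cells to injured cells came with more Txnip and more Arrdc1, Arrdc2 and Arrdc4 RNA, with less Arrdc3, and with no called difference in either thioredoxin or in Mlxip. By the quasi-likelihood test of edgeR with Benjamini-Hochberg adjustment over all tested genes, 4 of the 8 members rose in MSCs against OGDR, where 11.6% of all tested genes rose. A single member, Arrdc3, fell, where 8.63% of all genes fell. Groups did not overlap for 4 of the 8 members, against 24.7% of all genes. The median log2 fold change of the 8 was 0.23, beside -0.0021 over all tested genes. The share of counts in 13 mitochondrial protein genes was 3.29% to 3.73% in OGDR and 2.56% to 3.05% in MSCs, and that in 80 ribosomal protein genes was 2.80% to 3.04% and 2.38% to 2.62%. Both shares were lower in every MSCs library than in any OGDR library, and their part in these differences was not tested. The plot of member levels by library shows every value.

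**Figure D1:**
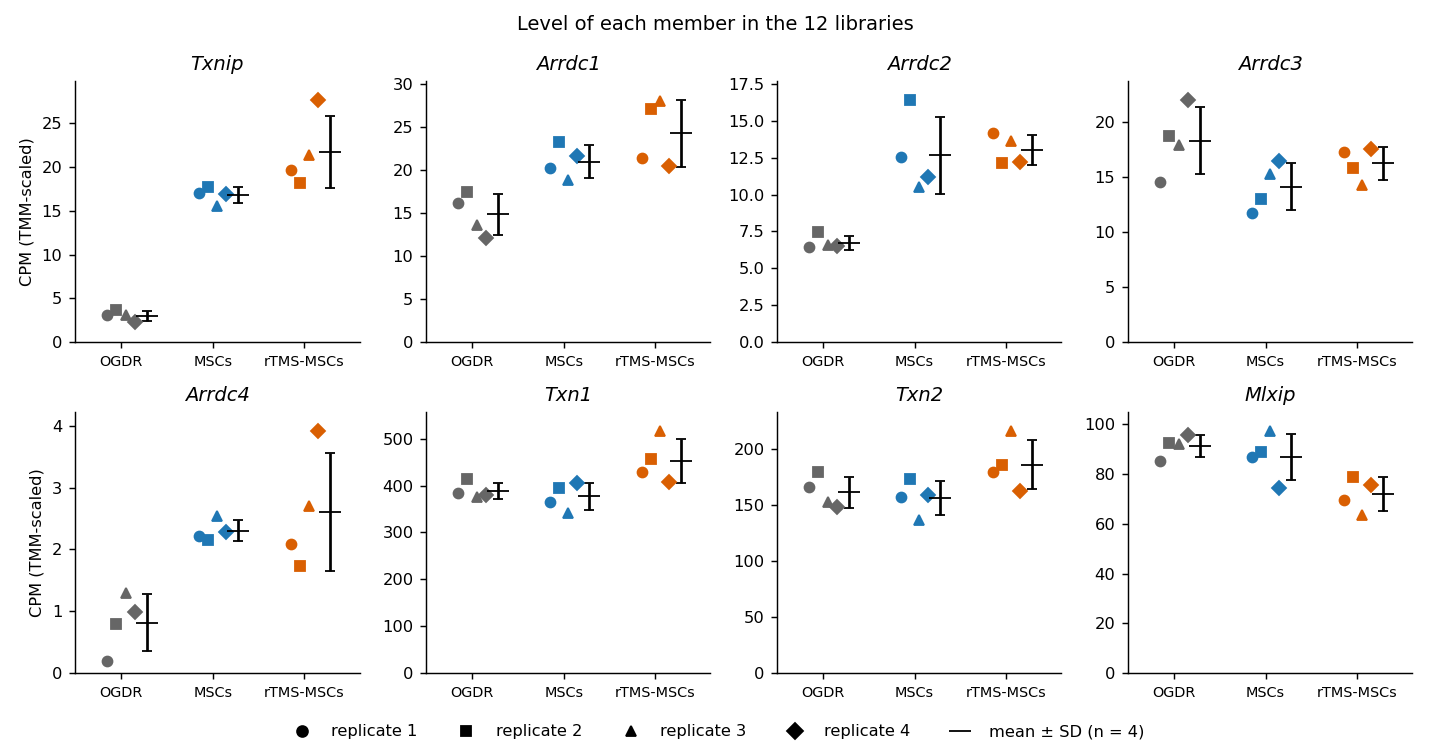
Level of each of the 8 measured genes in TMM-scaled CPM (vertical axis, from 0, with its own scale per panel) in the 3 groups; symbols are the replicates and bars show the mean ± SD (n = 4). Txnip lay at 2.29 to 3.65 CPM in OGDR, at 15.6 to 17.8 CPM in MSCs and at 18.2 to 27.6 CPM in rTMS-MSCs.

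Txnip (ENSRNOG00000021201 in the count table) was the member that differed most. In OGDR replicates 1 to 4 it had 3.07, 3.65, 3.13 and 2.29 CPM, from 63, 74, 65 and 44 counts. In MSCs it had 17.1, 17.8, 15.6 and 16.9 CPM, from 339, 346, 288 and 318 counts. In rTMS-MSCs it had 19.7, 18.2, 21.4 and 27.6 CPM, from 395, 346, 404 and 551 counts. All 8 libraries with stem cells lay above all 4 OGDR libraries, and replicate 4 of rTMS-MSCs was the highest of the 12. Group means were 3.03 ± 0.562, 16.8 ± 0.904 and 21.7 ± 4.14 CPM (SD, n = 4). Txnip rose 5.53-fold with stem cells (log2 fold change 2.47 ± 0.152 SE, 95% interval 2.15 to 2.78, edgeR adjusted p = 1.49e-10). By size of upward fold change it stood at place 37 of the 13692 tested genes.

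Arrdc4 (ENSRNOG00000010775) is the alpha-arrestin closest to Txnip in its known response to glucose, and it was scarce. It had 4, 16, 27 and 19 counts in OGDR replicates 1 to 4, which is 0.195, 0.789, 1.30 and 0.987 CPM. In MSCs it had 44, 42, 47 and 43 counts, or 2.22, 2.16, 2.54 and 2.28 CPM. In rTMS-MSCs it had 42, 33, 51 and 78 counts, or 2.09, 1.74, 2.70 and 3.91 CPM. OGDR did not overlap either group with stem cells. As with Txnip, replicate 4 of rTMS-MSCs was the highest library, and the low counts left a wide error. The rise with stem cells was 2.80-fold (log2 1.48 ± 0.370 SE, 95% interval 0.71 to 2.26, edgeR adjusted p = 0.00614). Its size depended on single OGDR libraries. The log2 difference was 1.16 without OGDR 1, which had 4 counts, and 1.81 without OGDR 3 (edgeR adjusted p = 0.0157 and 0.00333).

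Arrdc2 (ENSRNOG00000019009), another alpha-arrestin, lay at 6.48, 7.44, 6.56 and 6.49 CPM in OGDR, at 12.5, 16.4, 10.5 and 11.2 CPM in MSCs and at 14.1, 12.1, 13.6 and 12.2 CPM in rTMS-MSCs. Its highest OGDR library was below its lowest library with stem cells. Arrdc2 rose 1.88-fold in MSCs (log2 0.91 ± 0.137 SE, 95% interval 0.62 to 1.19, edgeR adjusted p = 4.72e-05). Arrdc1 (ENSRNOG00000007622), an adaptor known for its part in the budding of vesicles from the cell membrane, lay at 16.1, 17.4, 13.6 and 12.2 CPM in OGDR, at 20.2, 23.3, 18.8 and 21.6 CPM in MSCs and at 21.4, 27.1, 28.0 and 20.5 CPM in rTMS-MSCs. The OGDR libraries were again the lowest 4 of the 12. Arrdc1 rose 1.41-fold (log2 0.50 ± 0.126 SE, 95% interval 0.24 to 0.76, edgeR adjusted p = 0.00688).

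Arrdc3 (ENSRNOG00000045649), an alpha-arrestin known for its work on the beta-adrenergic receptor, went the other way. It lay at 14.6, 18.8, 17.9 and 22.0 CPM in OGDR, at 11.7, 13.0, 15.3 and 16.5 CPM in MSCs and at 17.3, 15.8, 14.3 and 17.6 CPM in rTMS-MSCs. The 3 groups overlapped, and the rTMS-MSCs mean lay between the other means. In MSCs Arrdc3 fell by 0.37 on the log2 scale (SE 0.129, 95% interval -0.64 to -0.10, edgeR adjusted p = 0.0456). Leaving out any 1 of 7 libraries ended this call, namely OGDR 2, 3 or 4, MSCs 1 or 2, and rTMS-MSCs 1 or 2, with adjusted p between 0.0540 and 0.175.

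The promoter windows of Arrdc4, Arrdc2 and Arrdc3 are printed to show how they differ in 2 short motifs. Arrdc4 and Arrdc2 rose with stem cells, as did Arrdc1, which is not printed. The call of a fall in Arrdc3 depended on single libraries, as given above. RefSeq held a window of 300 bases (250 before the transcript start and 50 after) for 8 of the 9 members, not Txnip, on the rat build GRCr8, while the counts were made on mRatBN7.2. The 250 bases before the start are given 5′ to 3′ on the strand of the gene, with CACGTG (the E-box core bound by Mlxip and related factors) and CCAAT or its complement ATTGG in capitals.
Arrdc4, chr1:131793426-131793675, minus strand: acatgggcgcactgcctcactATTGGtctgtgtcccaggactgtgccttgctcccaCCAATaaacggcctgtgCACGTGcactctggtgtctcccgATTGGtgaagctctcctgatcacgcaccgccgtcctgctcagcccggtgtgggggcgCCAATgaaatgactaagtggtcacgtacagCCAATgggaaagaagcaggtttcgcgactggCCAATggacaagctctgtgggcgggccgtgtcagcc
Arrdc2, chr16:18635633-18635882, plus strand: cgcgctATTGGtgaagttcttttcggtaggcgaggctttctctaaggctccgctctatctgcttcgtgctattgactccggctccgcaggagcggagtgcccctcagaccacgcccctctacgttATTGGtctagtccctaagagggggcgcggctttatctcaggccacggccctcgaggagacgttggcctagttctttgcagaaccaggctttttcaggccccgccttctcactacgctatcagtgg
Arrdc3, chr2:12872952-12873201, plus strand: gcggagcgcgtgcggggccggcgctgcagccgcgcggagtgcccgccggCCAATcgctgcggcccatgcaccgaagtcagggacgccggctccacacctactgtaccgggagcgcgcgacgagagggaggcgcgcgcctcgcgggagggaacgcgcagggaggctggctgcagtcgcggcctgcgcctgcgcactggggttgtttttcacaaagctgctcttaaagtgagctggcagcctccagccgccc
The Arrdc4 window held 1 CACGTG and 6 CCAAT matches over both strands. CACGTG occurred in 6.42% of the 33469 promoter windows of the same 300 bases, and 0.0418% of them had 6 or more CCAAT matches. Arrdc2 had 2 CCAAT matches and Arrdc3 had 1, a motif that 37.5% of windows held, and neither had CACGTG. Arrdc1 had no match to any of the 9 motifs searched, while Txn2 and Mlxip had 1 CCAAT match each and Txn1 had TATAAA, which 14.2% of windows held. None of these 7 windows of measured members matched the spaced pair of E-boxes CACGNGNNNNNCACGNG (0.0359% of windows), the glucocorticoid receptor element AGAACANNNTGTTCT (0.0149%) or its single arm AGAACA (20.7%). None matched GTAAACA (FOXO, 3.78%) or GAANNTTC (heat shock, 8.59%), and only that of Arrdc4 matched TGACNNNGC (antioxidant response, 12.1%). Both strands were searched for all motifs, and a match is a description of the letters, not evidence of binding.

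For both thioredoxins and for Mlxip, no difference between MSCs and OGDR passed the threshold. Txn1 (ENSRNOG00000012081) lay at 384, 414, 376 and 381 CPM in OGDR, at 365, 396, 341 and 406 CPM in MSCs and at 429, 457, 516 and 408 CPM in rTMS-MSCs. OGDR and MSCs overlapped widely. For Txn1 the log2 difference between MSCs and OGDR was -0.04 ± 0.0683 (SE, 95% interval -0.19 to 0.10, edgeR adjusted p = 0.715). Txn2 (ENSRNOG00000005614) lay at 166, 179, 153 and 148 CPM in OGDR and at 157, 174, 136 and 159 CPM in MSCs, a difference of -0.05 ± 0.0834 (SE, 95% interval -0.22 to 0.13, adjusted p = 0.761). Mlxip (ENSRNOG00000001255) lay at 85.3, 92.3, 92.0 and 95.7 CPM in OGDR and at 86.8, 88.8, 97.2 and 74.4 CPM in MSCs. Its log2 difference was -0.07 ± 0.0791 (SE, 95% interval -0.24 to 0.09, adjusted p = 0.576).

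Because Txnip acts on thioredoxin, its counts were also set against those of Txn1 within each library, as a description with no test. There were 7.998, 8.82, 8.34 and 6.01 Txnip counts per 1000 Txn1 counts in OGDR replicates 1 to 4. In MSCs there were 46.8, 44.9, 45.7 and 41.7, and in rTMS-MSCs 45.9, 39.9, 41.5 and 67.7. Libraries with stem cells lay well above the others, and 3 of the 4 rTMS-MSCs libraries lay within or below the range of MSCs. The ratio of the thioredoxins to each other was alike in all groups, at 415 ± 21.5, 415 ± 22.7 and 411 ± 9.64 Txn2 counts per 1000 Txn1 counts (SD, n = 4) in OGDR, MSCs and rTMS-MSCs. These are ratios of counts without correction for transcript length.

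**Figure D2:**
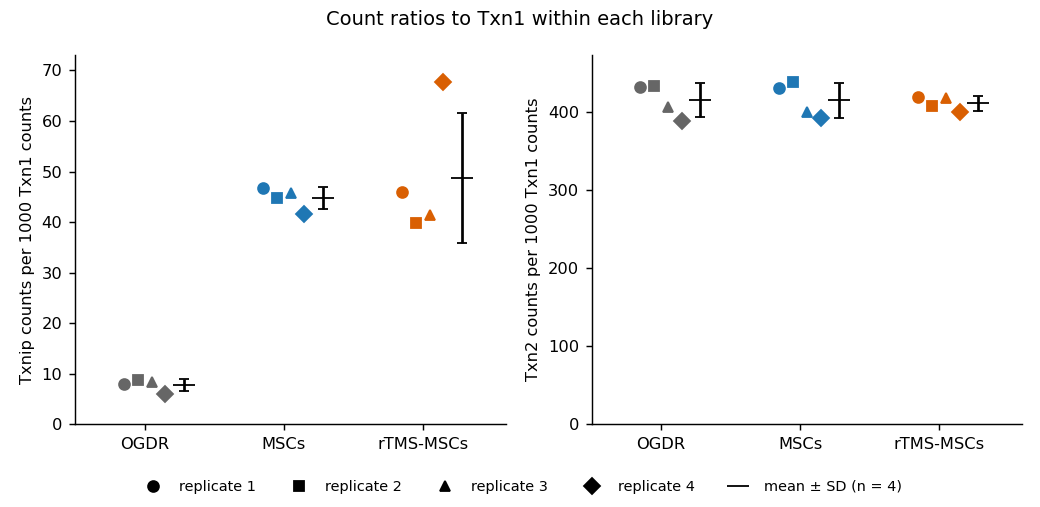
Txnip counts (left) and Txn2 counts (right) per 1000 Txn1 counts in the same library, both from 0, by group; symbols are the replicates and bars show the mean ± SD (n = 4). The Txnip ratio was 6.01 to 8.82 in OGDR and 39.9 to 67.7 in the libraries with stem cells, while the Txn2 ratio stayed between 389 and 439 in all 12.

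Stimulation on top of stem cells came with different members. In rTMS-MSCs against MSCs, Txn1 and Txn2 rose, 2 of 8 members where 7.14% of all tested genes rose. Mlxip fell, 1 of 8 where 10.9% of all genes fell. Groups did not overlap for 2 members, Txnip and Txn1, against 19% of all genes. The median log2 fold change of the 8 was 0.21, beside 0.015 over all tested genes. Txn1 rose 1.20-fold (log2 0.26 ± 0.0683 SE, 95% interval 0.12 to 0.41, edgeR adjusted p = 0.0131). Txn2, at 180, 186, 216 and 163 CPM in rTMS-MSCs, rose 1.19-fold with overlapping groups (log2 0.25 ± 0.0833 SE, 95% interval 0.08 to 0.43, adjusted p = 0.0421). Mlxip, at 69.5, 79.0, 63.7 and 75.6 CPM, fell by 0.27 on the log2 scale, also with overlap (SE 0.0797, 95% interval -0.44 to -0.10, adjusted p = 0.0246).

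None of these 3 calls held once both libraries numbered 3 were left out. MSCs 3 had the lowest Txn1 and Txn2 and the highest Mlxip of its group, and rTMS-MSCs 3 had the highest Txn1 and Txn2 and the lowest Mlxip of its own. The same libraries had the lowest and the highest share of counts in 80 ribosomal protein genes of all 12, at 2.38% and 3.40%. The other MSCs libraries had 2.46% to 2.62% and the other rTMS-MSCs libraries 2.68% to 2.92%. With both left out, the log2 differences were 0.15 for Txn1, 0.11 for Txn2 and -0.16 for Mlxip, with edgeR adjusted p of 0.122, 0.381 and 0.226. As both libraries lay at the far ends of their groups, leaving them out had to narrow these differences, with fewer libraries per group. Over all genes, 677 were then called, against 2475 in the full fit. Without MSCs 3 alone the edgeR adjusted p were 0.0572 for Txn1, 0.151 for Txn2 and 0.117 for Mlxip, and without rTMS-MSCs 3 or without MSCs 1 Txn1 was the single member called. Over 23 alternatives, Txn1 kept its call in 20, Mlxip in 16 and Txn2 in 12. The part of these libraries' makeup in the differences was not tested.

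Txnip itself was higher in all 4 rTMS-MSCs libraries than in any MSCs library, and it missed the threshold. Its log2 difference was 0.37 ± 0.129 (SE, 95% interval 0.10 to 0.64, edgeR adjusted p = 0.0516). Without rTMS-MSCs 4, its highest library, the difference was 0.23 with adjusted p = 0.171. It passed without rTMS-MSCs 2 (0.44, adjusted p = 0.0398), without rTMS-MSCs 1 (0.41, adjusted p = 0.0482) and without OGDR 4 (0.37, adjusted p = 0.0420). Over all 23 alternatives the adjusted p ran from 0.0307 to 0.175. The 4 other alpha-arrestins overlapped between these groups, with log2 differences of 0.21 ± 0.124 for Arrdc1, 0.04 ± 0.131 for Arrdc2, 0.20 ± 0.130 for Arrdc3 and 0.18 ± 0.330 for Arrdc4 (SE). Their 95% intervals all included 0, that of Arrdc4 from -0.50 to 0.87, and their adjusted p lay between 0.247 and 0.861.

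Against OGDR, the rTMS-MSCs group had 5 members higher, Txnip, Arrdc1, Arrdc2, Arrdc4 and Txn1, and 1 lower, Mlxip, where 16.2% of all tested genes rose and 16.2% fell. The groups did not overlap for 5 members, against 30.3% of all genes. This comparison shares its OGDR libraries with the first and its rTMS-MSCs libraries with the second. Txnip rose 7.14-fold (log2 2.84 ± 0.151 SE, 95% interval 2.52 to 3.15, edgeR adjusted p = 1.28e-11), at place 28 by upward fold change. Arrdc4 rose 3.18-fold (log2 1.67 ± 0.366 SE, adjusted p = 0.00165), Arrdc2 rose 1.93-fold (log2 0.95 ± 0.137 SE, adjusted p = 2.36e-05) and Arrdc1 rose 1.63-fold (log2 0.71 ± 0.126 SE, adjusted p = 0.000242). Mlxip fell by 0.34 on the log2 scale without overlap of the groups (SE 0.0796, adjusted p = 0.00250), and this call held in all 23 alternatives. Txn1 rose 1.16-fold with overlap (log2 0.22 ± 0.0682 SE, adjusted p = 0.0179), a call lost without OGDR 3 (adjusted p = 0.0551) or rTMS-MSCs 3 (adjusted p = 0.0523). Txn2 was 0.21 ± 0.0832 (SE) higher on the log2 scale with adjusted p = 0.0641, and Arrdc3 differed by -0.17 ± 0.128 (SE, adjusted p = 0.334). The median log2 fold change of the 8 was 0.46, beside 0.0080 over all tested genes.

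**Figure D3:**
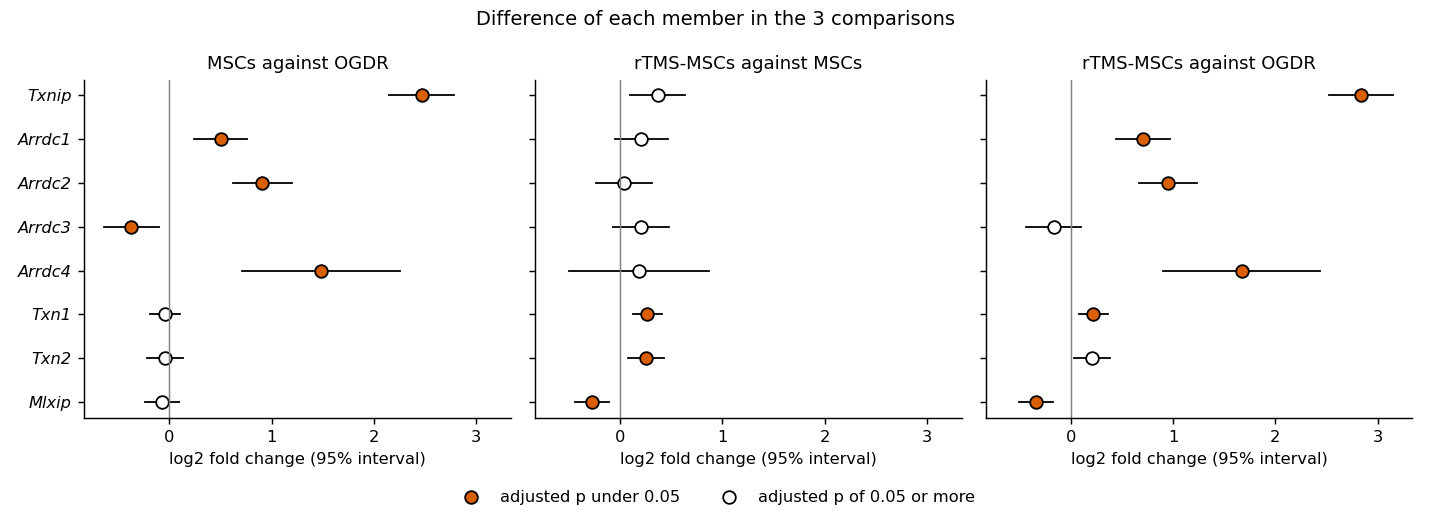
Log2 fold change of each measured member (horizontal axis) in the 3 comparisons, with its 95% interval; filled points had an edgeR adjusted p under 0.05. Txnip, Arrdc4, Arrdc2 and Arrdc1 stand to the right of 0 in both comparisons with OGDR, and in the middle panel the differences run from -0.27 for Mlxip to 0.37 for Txnip.

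Genes whose level followed that of Txnip most closely over the 12 libraries were found by the root mean square difference of log2 CPM, each gene centred on its own mean, among 10251 genes of at least 5 CPM. The nearest was Gpd1, the cytosolic glycerol-3-phosphate dehydrogenase, at 0.195, with mean levels of 84.2, 519 and 529 CPM in OGDR, MSCs and rTMS-MSCs. Next came the circadian clock gene Per1, at 0.227, with 19.4, 120 and 141 CPM. Cfap100 (0.296), Cadm3 (0.301) and Gdpd2 (0.308) followed. All 5 were higher in both groups with stem cells than in OGDR, which follows from their choice by likeness to Txnip and is no separate result. The limit of 5 CPM was on the mean over all libraries. In OGDR, Cfap100, Cadm3 and Gdpd2 had 1.05, 2.07 and 3.95 CPM, so they passed it through the groups with stem cells. As a root mean square of log2 CPM, Txnip's own spread about its mean was 1.26. For Arrdc4, the nearest was complement C3 (0.478), and the kinase gene Sgk1 was at 0.509, against its own spread of 0.954, a looser likeness. C3 had 3.14, 8.21 and 7.60 CPM in OGDR, MSCs and rTMS-MSCs, so it too passed the limit of 5 CPM through the groups with stem cells. Arrdc4 had only 4 to 27 counts per OGDR library, and sampling noise at such counts adds to any distance. How much of the looser likeness came from low counts was not tested. These distances are descriptions, with no test.

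The counts of this and the following lists are to be read beside the shares over all tested genes. Of all tested genes, 11.6% rose and 8.63% fell in MSCs against OGDR, and 7.14% and 10.9% in rTMS-MSCs against MSCs. The shares in rTMS-MSCs against OGDR were 16.2% and 16.2%. In the wider thioredoxin system, 19 of 22 listed reductases, peroxiredoxins and client proteins were tested. In MSCs against OGDR, 3 rose and 2 fell, with a median log2 change of -0.0090. The glutaredoxin Glrx, which reduces glutathionylated proteins, rose from 130 ± 2.40 to 338 ± 23.8 CPM (SD, n = 4; log2 1.38 ± 0.0545 SE, edgeR adjusted p = 1.45e-13). Nucleoredoxin, Nxn, rose by 0.60 ± 0.0758 (SE, adjusted p = 5.08e-06) and the methionine sulfoxide reductase Msrb3 by 0.49 ± 0.0902 (SE, adjusted p = 0.000444). The peroxiredoxin Prdx5 fell by 0.54 (SE 0.0839, adjusted p = 6.45e-05), from 386 ± 27.3 to 265 ± 17.0 CPM. Txnrd1, the cytosolic reductase that recharges Txn1 and a gene picked after its values were seen, lay at 200 ± 10.9, 199 ± 3.83 and 200 ± 12.3 CPM in OGDR, MSCs and rTMS-MSCs. In rTMS-MSCs against MSCs, 4 of the 19 rose, with a median of 0.15, and with both libraries numbered 3 left out 1 gene of the list was called. Against OGDR, 5 rose and 1 fell, with a median of 0.05.

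Of the other arrestin-fold genes, 5 of 8 were tested. In MSCs against OGDR 2 rose, Arrb1 and Vps26b, with a median of 0.19, and the call of Vps26b was lost without OGDR 2, OGDR 4 or MSCs 1. Arrb1, a beta-arrestin that uncouples G protein-coupled receptors, rose by 0.83 ± 0.142 (SE, adjusted p = 0.000191) with stem cells and fell by 0.76 (SE 0.142, adjusted p = 0.00235) from MSCs to rTMS-MSCs, at 26.8 ± 4.40, 47.8 ± 8.40 and 28.3 ± 5.69 CPM. That was the 1 gene of the list to fall in rTMS-MSCs against MSCs (median -0.03), and 2 were higher than in OGDR (median 0.08), a count that ran from 0 to 2 over the alternatives and was kept in 13 of 23. It was 0 without rTMS-MSCs 3, and 1 without rTMS-MSCs 4 or without OGDR 2, 3 or 4. Of the NEDD4-type ligases and their adaptors, which alpha-arrestins recruit, 11 of 13 were tested, and 3 fell with stem cells (median -0.13). Nedd4l fell by 0.33 (SE 0.05995, adjusted p = 0.000338) and the adaptor Ndfip2 by 0.30 (SE 0.0734, adjusted p = 0.00560). From MSCs to rTMS-MSCs 2 fell (median -0.06), among them Itch by 0.48 (SE 0.101, adjusted p = 0.00409), and 1 gene was called without both libraries numbered 3. Itch, a ligase known to act on Txnip, had 48.2 ± 5.27, 47.4 ± 6.32 and 33.9 ± 3.35 CPM in OGDR, MSCs and rTMS-MSCs. In rTMS-MSCs against OGDR, 7 of the 11 fell and 1 rose, with a median of -0.25.

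The partners of Mlxip in the Mlx and Myc network were tested in 8 of 9 cases. In MSCs against OGDR 1 rose, the repressor Mxd4, by 0.78 ± 0.0708 (SE, adjusted p = 6.09e-08), and 1 fell, Myc, by 0.29 (SE 0.0756, adjusted p = 0.00773), with a median of -0.07. From MSCs to rTMS-MSCs Myc rose by 0.35 ± 0.0756 (SE, adjusted p = 0.00498) and Mga fell by 1.11 (SE 0.168, adjusted p = 0.000832), with a median of 0.04. Against OGDR 1 rose and 2 fell in rTMS-MSCs, with a median of 0.04.

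Glucose-responsive genes and glucose transporters moved in both directions. Of 20 listed genes 15 were tested, and 2 rose and 3 fell in MSCs against OGDR, with a median of -0.06. Gpd1 rose by 2.62 ± 0.0647 (SE, adjusted p = 8.34e-17). The transporters Slc2a1 and Slc2a3, by contrast, fell by 0.77 (SE 0.0741, adjusted p = 1.24e-07) and 0.48 (SE 0.0576, adjusted p = 2.44e-06). Slc2a1 (GLUT1), a transporter that Txnip is known to remove from the cell surface, had 72.4 ± 4.37, 42.4 ± 3.07 and 47.8 ± 3.02 CPM in OGDR, MSCs and rTMS-MSCs. In rTMS-MSCs against MSCs 2 fell (median -0.16), one of them the hexokinase gene Hk2 by 0.47 (SE 0.0915, adjusted p = 0.00300), and 1 was called without both libraries numbered 3. Against OGDR 2 rose and 7 fell, with a median of -0.10.

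Protein partners and cargo of Txnip were tested in 10 of 12 cases, of which 2 rose and 2 fell with stem cells (median 0.04). Ddit4 (REDD1), which forms a complex with Txnip, rose by 1.27 ± 0.0595 (SE, adjusted p = 2.11e-12), and Notch1 rose by 0.58 ± 0.0584 (SE, adjusted p = 2.15e-07). Nlrp3, the inflammasome sensor that Txnip is known to bind, fell by 1.33 (SE 0.279, adjusted p = 0.00154), at 4.57 ± 1.89, 1.82 ± 0.403 and 1.79 ± 0.496 CPM in the 3 groups. Nlrp3 was named after its values were seen, to account for the second gene that fell beside Slc2a1. From MSCs to rTMS-MSCs 3 fell while the list's median was 0.07, and these were Ddit4 by 0.36 (adjusted p = 0.00122), Notch1 by 0.33 (adjusted p = 0.00176) and Insr by 0.64 (adjusted p = 0.00684). Against OGDR 4 rose and 3 fell, with a median of 0.10.

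With stem cells 11.6% of all tested genes rose and 8.63% fell. Among 16 of 17 listed transcriptional regulators of Txnip that could be tested, 2 rose and 1 fell with stem cells (median 0.02). The rises were Nr4a1 by 0.57 ± 0.0608 (SE, adjusted p = 4.94e-07) and Foxo1 by 0.55 ± 0.116 (SE, adjusted p = 0.00150), and the fall was Nfe2l2 (NRF2) by 0.38 (SE 0.0532, adjusted p = 1.62e-05). From MSCs to rTMS-MSCs 5 fell (median -0.07), among them Foxo1 by 0.62 (adjusted p = 0.00242) and the glucocorticoid receptor gene Nr3c1 by 0.30 (adjusted p = 0.00776). Without both libraries numbered 3, 1 gene of this list was called and the adjusted p of Nr3c1 was 0.0720. Against OGDR 2 rose and 5 fell, with a median of -0.07.

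Of 13 listed genes that glucocorticoids induce, or that encode their receptor, 10 were tested and 8 rose with stem cells, at a median of 1.41. Per1 rose by 2.63 ± 0.0696 (SE, adjusted p = 2.28e-16), Fkbp5 by 1.99 ± 0.0607 (SE, adjusted p = 1.83e-15), Tsc22d3 (GILZ) by 1.97 ± 0.0684 (SE, adjusted p = 1.78e-14) and Sgk1 by 1.92 ± 0.0653 (SE, adjusted p = 1.39e-14). Fkbp5, a chaperone of the glucocorticoid receptor, had 84.2 ± 5.46, 335 ± 18.8 and 347 ± 16.5 CPM in OGDR, MSCs and rTMS-MSCs. From MSCs to rTMS-MSCs 1 rose and 3 fell (median -0.09), of which 2 calls were left without both libraries numbered 3. Against OGDR 8 rose and 1 fell in rTMS-MSCs (median 1.20). The gene that fell was the receptor gene Nr3c1, by 0.40 (edgeR adjusted p = 0.000204). Pdk4, named after its values were seen, was not called against OGDR in MSCs (edgeR adjusted p = 0.252) or in rTMS-MSCs (0.786). Per1, Sgk1 and Gpd1 are also among the nearest genes above, and Slc2a1, Ddit4 and Nr3c1 each stand on more than 1 list. The glucocorticoid list was written with earlier results of these data known, so its direction is not independent of them.

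**Figure D4:**
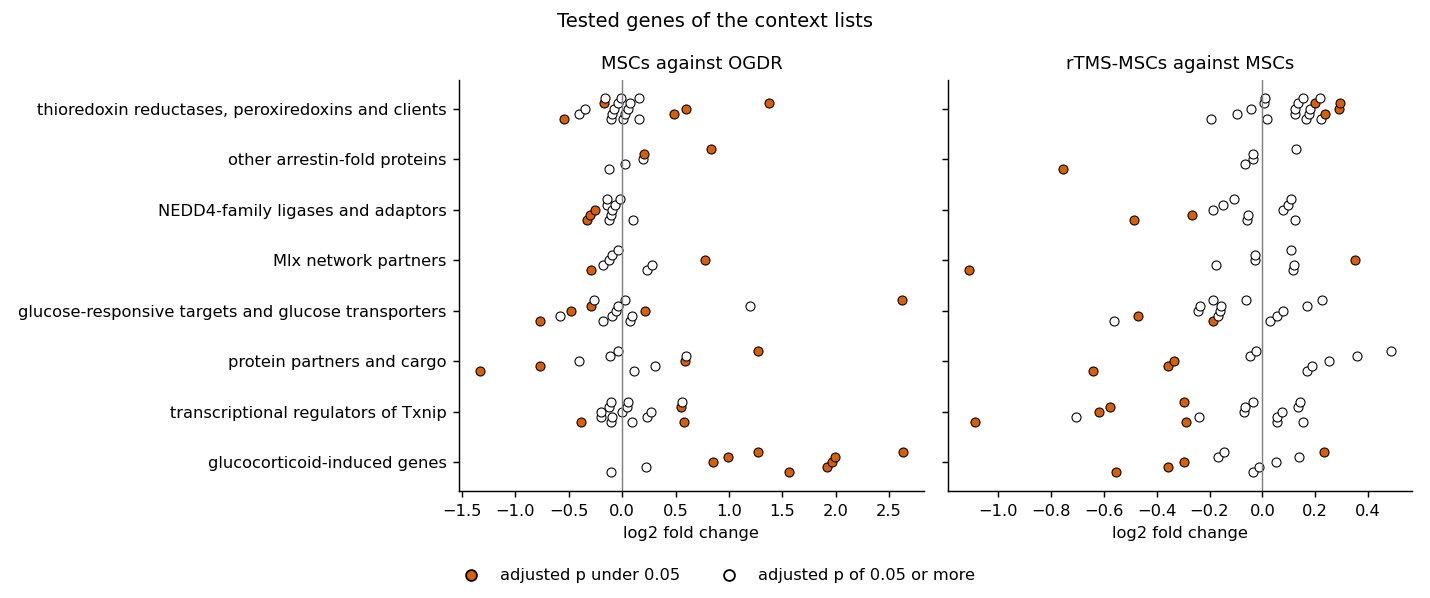
Log2 fold change (horizontal axis, a different scale in each panel) of every tested gene of the 8 lists in MSCs against OGDR (left) and rTMS-MSCs against MSCs (right); filled points had an edgeR adjusted p under 0.05, and vertical position within a list carries no meaning. In the left panel 8 of the 10 genes of the glucocorticoid list are filled and to the right of 0, while the glucose-responsive list is spread on both sides, with Gpd1 at 2.62 and Slc2a1 at -0.77.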

How the data were processed

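Poly(A) RNA of 12 samples was sequenced, and the authors deposited raw read counts per Ensembl gene. Per the submitters' processing notes, HISAT2 2.1.0, HTSeq 0.11.2, DESeq2 1.40.1 and the build mRatBN7.2 were used; the strand setting of the counting is unknown from these sources, so that overlapping antisense genes cannot be told apart. Lines for reads on no feature (51.7285% to 52.7141% of reads) or on several were left out. The series text speaks of 20 samples and a microarray, and the 12 sequenced libraries were analysed.

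R 4.3.3 was used. The filterByExpr function of edgeR 4.0.16 (minimum count 10, minimum total 15) chose the genes, scaling was by TMM, and 1 quasi-likelihood fit with 3 group means took in all 12 libraries. P-values were 2-sided and adjusted by Benjamini-Hochberg over 13692 genes, with a threshold of 0.05. Intervals use the t distribution of the fit. Log2 CPM for the nearest genes used a prior count of 2. Replicates of 1 group differed by more than sampling noise. Alternatives used DESeq2 1.42.0, limma 3.58.1 (voom), other scalings and filters, a replicate block, and libraries left out.

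The members and lists were chosen with earlier results of these data known. All members are named, with up to 4 genes per list with the smallest p in any comparison, genes needed to account for a list, the 5 genes nearest to Txnip, and the 3 nearest to any other member with a called 2-fold difference, of which Arrdc4 was the 1 case. Some genes that these rules or the marker lists would name are not reported here. Of 110 context symbols, 107 matched. Promoter sequences are from RefSeq.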

Additional observations from a re-analysis of the deposited data

Results flagged for a closer look

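Arrdc2 in OGDR replicate 2, at 7.44 CPM, lay apart from the other 3 OGDR libraries, at 6.48 to 6.56 CPM. The gap was 0.920 of the group's range, above Dixon's 95% critical value for 4 samples. It was 1 flag among 24 checks of a member in a group, and chance alone flags about 1 in 20. The library still lay below every library with stem cells for Arrdc2.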

How the results depend on the processing

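In all 23 alternatives Txnip, Arrdc1, Arrdc2 and Arrdc4 kept their rises over OGDR in both groups with stem cells. The log2 difference of Txnip ran from 2.35 to 2.57 in MSCs and from 2.70 to 2.94 in rTMS-MSCs. In rTMS-MSCs against MSCs, where 3 members were called, 1 was called in a fit of the 8 compared libraries, 0 at a threshold of 0.01 and 0 without both libraries numbered 3, and 0 (without MSCs 3) to 4 with 1 library left out. At an unadjusted edgeR p under 0.05, 4 members passed in the full fit and without MSCs 3 (Txnip, Txn1, Txn2 and Mlxip), and 4 without both libraries numbered 3, with Arrdc3 in and Txn2 out. Txnip passed there with upper quartile scaling (0.38, adjusted p = 0.0422), with DESeq2 (0.37, adjusted p = 0.0307), with no filter (0.36, adjusted p = 0.0426) and with a filter of 1 CPM (0.37, adjusted p = 0.0479), and it ran from 0.23 to 0.44 with 1 library left out.

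Over all genes, a threshold of 0.01 gave 1743 calls in MSCs against OGDR (2763 at 0.05), 858 in rTMS-MSCs against MSCs (2475) and 2724 in rTMS-MSCs against OGDR (4439). In rTMS-MSCs against MSCs leaving out 1 library gave 1003 to 3213 calls, and leaving out both numbered 3 gave 677. Differences near 0 changed sign. Without both libraries numbered 3, these were Txn1 (0.000912) and Txn2 (0.015) in MSCs against OGDR and Arrdc2 (-0.062) in rTMS-MSCs against MSCs. Arrdc4 in rTMS-MSCs against MSCs was -0.017 with limma voom. With 1 library left out, Txn2 ran from -0.099 to 0.013 in MSCs against OGDR, and in rTMS-MSCs against MSCs Arrdc2 ran from -0.038 to 0.19 and Arrdc4 from -0.079 to 0.34. The cause was not tested.

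Whether libraries of the same number shared a culture or day is not given by the labels, and the correlations below cannot decide it. Deviations of same-numbered libraries correlated at -0.21 to 0.13 in 12 pairs, over 0.1 in 1, and 4 of 12 libraries correlated best with their own number. The pairs of OGDR with MSCs had 0.029, 0.087, 0.13 and 0.084 for numbers 1 to 4. Pairs with an rTMS-MSCs library ran from -0.21 (MSCs 3 with rTMS-MSCs 3) to 0.060 (OGDR 4 with rTMS-MSCs 4). With the replicate block, 5, 2 and 6 members were called in the 3 comparisons (5, 3 and 6 without it), Txn2 in rTMS-MSCs against MSCs having an adjusted p of 0.0518, and 2577, 1995 and 4185 genes over all. Depth limits Arrdc4 most, with 4 to 27 counts per OGDR library.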
